A study of Mus musculus with 12 samples.

Results

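The genes described here encode the beta-catenin destruction complex and the GSK3-binding Frat proteins. They comprise the GSK3 kinase genes Gsk3a and Gsk3b, the scaffold genes Axin1, Apc and Apc2, the casein kinase 1 gene Csnk1a1, the ubiquitin ligase adaptor gene Btrc, the beta-catenin gene Ctnnb1, and Frat1 and Frat2. They were found by gene symbol in the read-count table, where each of the 10 symbols matched a gene row, out of 23965 gene rows in all. All 10 passed the filter on low counts, which kept 15608 genes.

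Without a Wnt signal, Axin and Apc hold beta-catenin next to casein kinase 1 and GSK3, which phosphorylate it in turn. The phosphorylated protein is recognised by beta-TrCP, the product of Btrc, ubiquitinated and degraded. Wnt signals or an inhibitor of GSK3 stop this step, and beta-catenin then accumulates and acts with Tcf/Lef factors in the nucleus. Frat proteins bind GSK3 at a surface that Axin also uses, and their overexpression stabilises beta-catenin. Mice that lack the Frat genes develop normally, so the proteins are not required for Wnt signalling in that animal. In the ventral midbrain of the embryo, Wnt signalling through beta-catenin acts on the division of progenitors and on the formation of dopamine neurons.

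RNA was sequenced from neurospheres, floating cultures of neural cells, that had been grown from E11.5 ventral midbrain of the CD-1 mouse strain. After 3 days of expansion the cultures were held for 5 h in N2 medium with GW3965 and CT99021 together, with CT99021, with GW3965, or with the vehicle DMSO, which the labels of the control libraries list as no treatment. CT99021, also called CHIR99021, inhibits GSK3, and GW3965 is an agonist of the liver X receptors, nuclear receptors for oxysterols. Each of the 4 groups had 3 libraries, numbered 1 to 3 in the labels. The sources used here give no doses, and no genetic change is recorded for any group. Whether the 3 libraries of a group came from separate cultures is not stated, so the labels do not say what kind of spread each p-value is set against. Libraries of a group differed by more than sampling noise and in their sums of cell type markers, as given below.

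The libraries held 9646424 to 21314093 gene counts. Libraries with the same number resembled each other across the groups, and fold changes are therefore given from a fit that takes the replicate number as a block, with the adjusted p of the fit without it beside the calls of the 10 genes. "Rose" and "fell" mean an adjusted p under 0.05 in edgeR's quasi-likelihood test with the block, adjusted by Benjamini-Hochberg over all 15608 genes. Lars2 took 7.95% of the gene counts of CT99021 replicate 1 and 0.0336% to 0.142% of those of the other libraries. Summed markers of neural progenitors (8 of 8 genes in the table) came to 2550 to 4420 CPM, the count scaled to a common library size, and those of the ventral midbrain (9 of 9) to 396 to 708 CPM. The mesenchyme and pericyte list (8 of 8) spanned 281 to 3920 CPM, with the highest value of each group in its library numbered 3. Neuronal markers (5 of 6) came to 1060 to 2050 CPM and erythroid markers (4 of 5) to 1990 to 10700 CPM. Endothelial markers (5 of 5) summed to 21.7 to 50.9 CPM and microglial ones (5 of 5) to 8.49 to 23.8 CPM. Of the endothelial markers, Kdr and Cdh5 averaged 19.8 and 14.9 CPM, and Pecam1, Tie1 and Cldn5 under 1 CPM. Of the microglial ones, Csf1r, Cx3cr1, Itgam and Ptprc averaged 6.03, 2.97, 2.68 and 1.8 CPM, and Aif1 under 1 CPM.

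The 10 genes differed widely in level. Per kilobase of transcript length in the deposited table, Ctnnb1 stood at 320 ± 19.6 CPM per kb in control libraries (SD, n = 3) and Csnk1a1 at 120.4 ± 8.31 CPM per kb. Gsk3a, Gsk3b, Apc2 and Apc followed at 44.6 ± 4.26, 39.5 ± 1.69, 33.8 ± 4.64 and 33.0 ± 3.17 CPM per kb. Axin1 stood at 15.2 ± 0.94 and Btrc at 10.6 ± 0.70 CPM per kb. Frat2 and Frat1 were the lowest, at 3.79 ± 1.86 and 2.45 ± 0.04 CPM per kb. In control libraries 3 of 9 neighbours in this order overlapped between libraries, namely Gsk3a with Gsk3b, Gsk3b with Apc2, and Apc2 with Apc. Ctnnb1, Csnk1a1, Gsk3a and Gsk3b were the top 4 in every group, in that order, and Axin1, Btrc, Frat2 and Frat1 closed it.

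**Figure D1:**
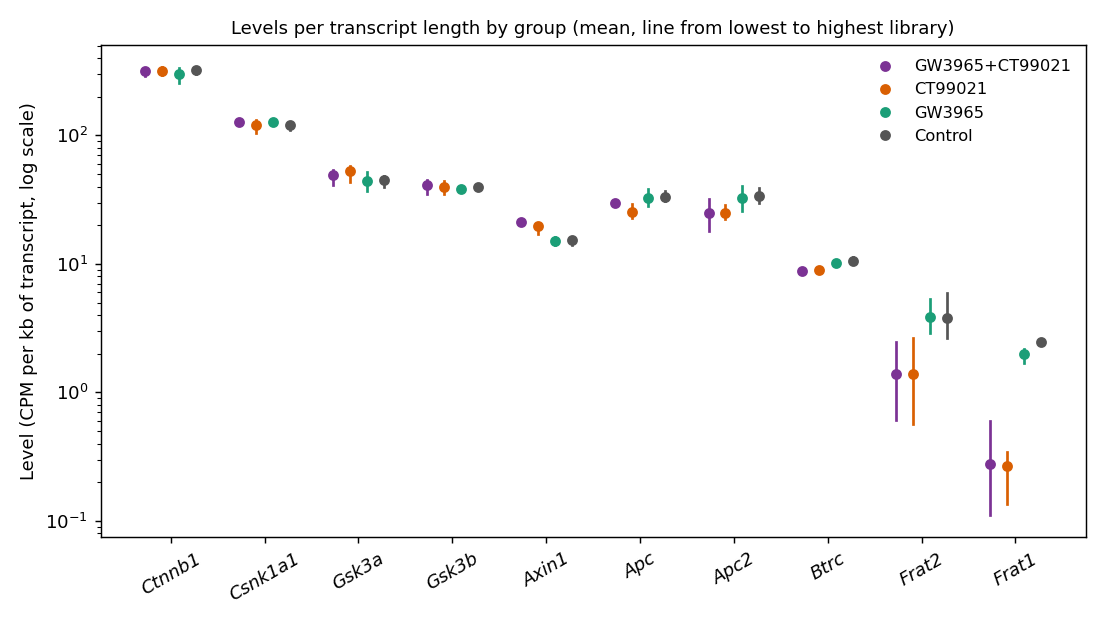
Level of each gene per kilobase of transcript (CPM per kb, log axis) in libraries with both compounds, CT99021, GW3965 and control. Points are means of 3 libraries and lines run from the lowest to the highest library. Frat1 averaged 0.27 CPM per kb in each group with CT99021, against 1.98 CPM per kb with GW3965 and 2.45 CPM per kb in control.

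The largest fold changes among these genes after 5 h of CT99021 were those of the Frat transcripts. With CT99021, Frat1 fell to a 0.111-fold level and Frat2 to a 0.345-fold level of control. Axin1 rose 1.29-fold and Gsk3a 1.17-fold, while Apc fell to a 0.763-fold and Btrc to a 0.849-fold level. Transcripts of Ctnnb1, Csnk1a1 and Gsk3b differed from control by less than their errors. In all, 6 of the 10 genes passed the test, 2 higher and 4 lower, where 15.8% of all tested genes passed. Of all tested genes 8.23% passed as higher and 7.59% as lower. The median log2 fold change was -0.13 over the 10 genes and 0.02 over all genes tested. Without the block none of the 10 passed, where 0.0577% of genes did. In that edgeR fit 5 of the 10 had an unadjusted p under 0.05, as did 1514 of all 15608 genes tested. In a bulk sample a smaller number of cells that express a gene and less of its RNA per cell cannot be told apart.

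CT99021 was also compared in the presence of GW3965, with the libraries of GW3965 alone as the baseline. That comparison shares no library with CT99021 against control, although libraries of the same number may share a source. Both comparisons came from the same fit to all libraries, with shared variance estimates and block terms, so they are not independent. Leaving out a library outside a comparison could change its calls, as given below for Gsk3a and Btrc. With both compounds against GW3965, 4 of the 10 passed, where 20.6% of all tested genes passed. Axin1 was higher, as 11.8% of all genes were, and Btrc, Frat2 and Frat1 were lower, as 8.81% were. The same 4 genes passed, in the same directions, in libraries with both compounds against control, where 20.3% of genes passed, 11.3% higher and 8.95% lower. This comparison shares libraries with each of the others. Without the block 0 of 10 passed in either of these comparisons, against 0.0769% and 0.115% of genes. In that edgeR fit 4 of the 10 had an unadjusted p under 0.05 in each, as did 1771 and 1867 of all 15608 genes. Groups did not overlap for 6 of the 10 genes with CT99021 against control, as for 14.8% of all genes tested. That number was 5 with both compounds against control, as for 17.3% of genes, and 4 with both against GW3965, as for 15.4%.

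**Figure D2:**
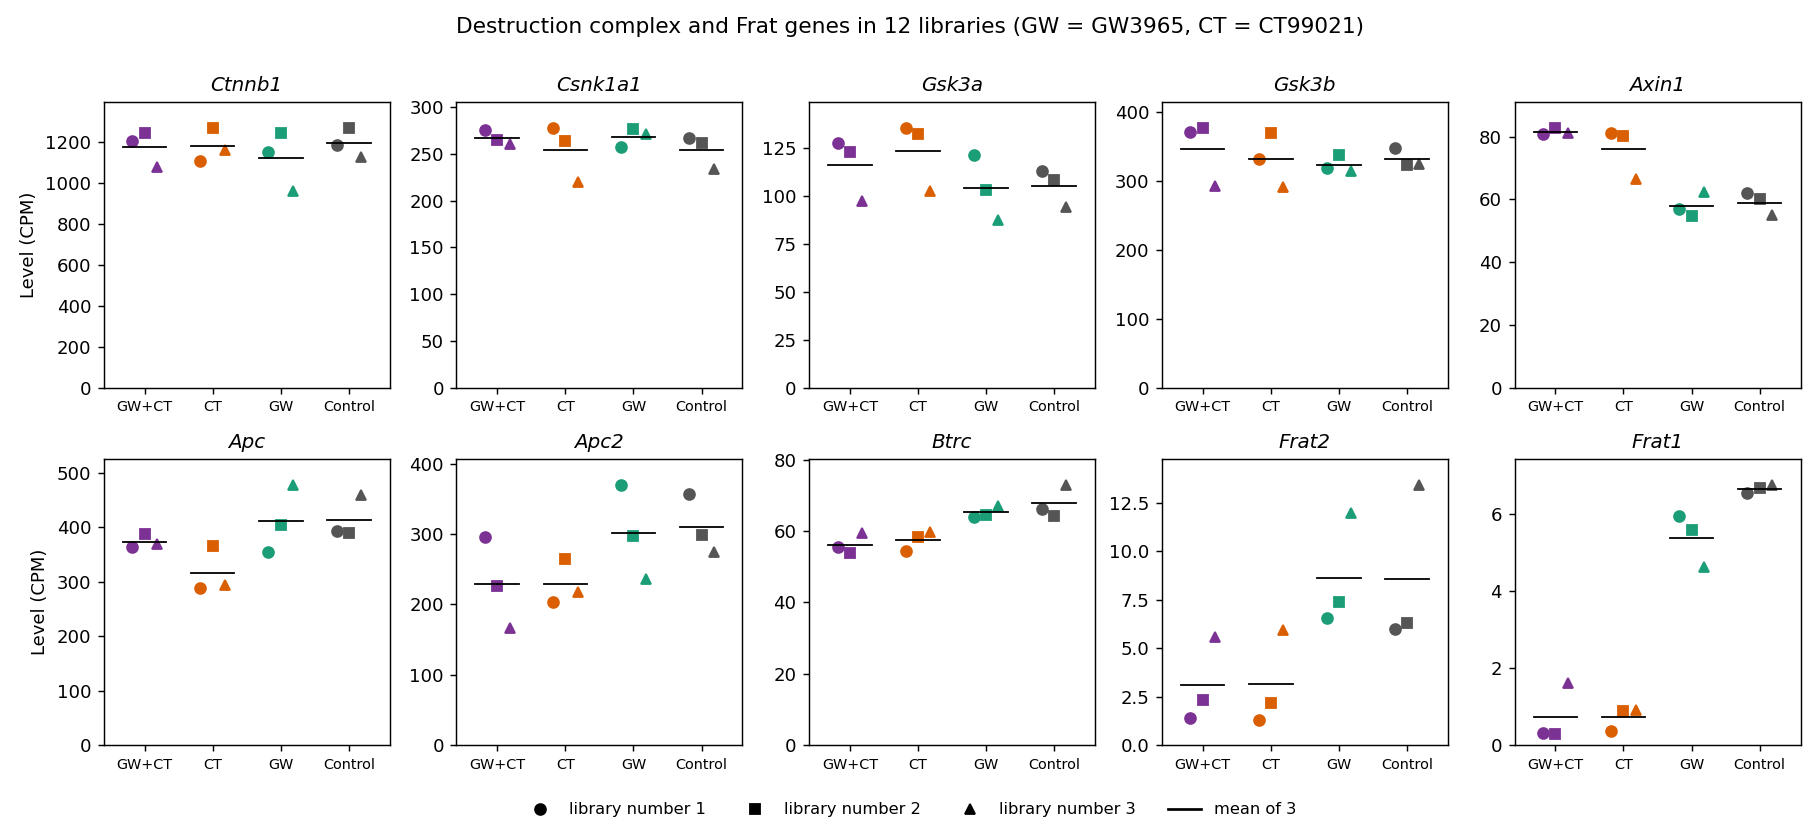
Level of each gene (CPM, linear axes from 0) in each of the 12 libraries, by group, with symbols for the library numbers and a line at the mean of 3. Frat1 lies at 0.30 to 1.61 CPM in the 6 libraries with CT99021 and at 4.63 to 6.74 CPM in the 6 without. Frat2 is highest in the library numbered 3 of every group.

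Frat1 encodes a GSK3-binding protein first found at a site of retroviral insertion in mouse T-cell lymphomas. Its level was 0.32, 0.30 and 1.61 CPM in the GW3965+CT99021 libraries 1, 2 and 3 and 0.37, 0.88 and 0.93 CPM in the CT99021 libraries, against 5.94, 5.58 and 4.63 CPM in the GW3965 libraries and 6.53, 6.68 and 6.74 CPM in the control libraries. Every library with CT99021 was below every library without it. The 3 control libraries had an SD of 0.11 CPM, which is less than counting noise alone would give at their 141, 135 and 85 counts. These levels rest on 29 counts in the 3 libraries with both compounds and 32 in those with CT99021, against 258 with GW3965 and 361 in control, so the remaining level is known only roughly.

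The log2 fold change of Frat1 was -3.17 ± 0.45 (SE) for CT99021 against control (edgeR adjusted p = 0.00262 with the block and 0.107 without it), with a 95% interval of -4.17 to -2.17. For both compounds against GW3965 it was -3.02 ± 0.46 (adjusted p = 0.00248 and 0.108 in the same edgeR fits). Against control, libraries with both compounds gave -3.29 ± 0.46 (0.00172 and 0.0815). In each of these 3 comparisons it was the most negative log2 fold change of the 15608 tested genes in the fit with the block. By size in either direction it ranked 8, 22 and 7 in the same order of comparisons. The gene was chosen with earlier results of these data known, so its rank is a description and not a test. All 6 same-numbered pairs of libraries were lower with CT99021, with log2 ratios of -3.46 to -1.39. The library GW3965+CT99021 replicate 3, at 1.61 CPM, held the smallest difference: without it the log2 fold change of both compounds was -4.38 against control and -4.09 against GW3965 (edgeR adjusted p = 0.000413 and 0.000716 with the block). Frat1 passed in all 20 alternatives with the block in these 3 comparisons, with adjusted p up to 0.0217.

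Frat2 encodes another GSK3-binding protein of the same family. It had 1.38, 2.35 and 5.61 CPM in libraries 1, 2 and 3 with both compounds and 1.29, 2.20 and 5.95 CPM with CT99021, against 6.58, 7.40 and 11.97 CPM with GW3965 and 5.98, 6.28 and 13.4 CPM in control. The library number also set levels apart: number 3 was the highest in all 4 groups, and CT99021 replicate 3 lay just below control replicate 1. Within each number, the libraries with CT99021 were lower in 6 of 6 pairs, with log2 ratios of -2.07 to -1.06. The log2 fold change was -1.53 ± 0.24 for CT99021 against control (edgeR adjusted p = 0.00395 with the block and 0.506 without). It was -1.64 ± 0.24 for both compounds against GW3965 (0.00224 and 0.407) and -1.56 ± 0.24 against control (0.00284 and 0.392). All 20 alternatives with the block kept Frat2 past the test in these comparisons, with adjusted p up to 0.0254.

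The libraries numbered 3, where Frat2 was highest, also had the highest mesenchyme and pericyte marker sums, at 3190 CPM with both compounds, 3920 CPM with CT99021, 2580 CPM with GW3965 and 2950 CPM in control. The lowest sums were in libraries numbered 2, at 984, 389, 292 and 281 CPM in the same order of groups. Of the 8 markers, 1 rose with CT99021 against control and 4 rose with both compounds against control and against GW3965, and 0 fell in these comparisons. Neural progenitor markers fell with CT99021 in 4 of 8 genes against control, and with both compounds in 5 of 8 against control and 6 of 8 against GW3965. In CT99021 against control 8.23% of all tested genes rose and 7.59% fell. With both compounds these shares were 11.3% and 8.95% against control, and 11.8% and 8.81% against GW3965. With the 4 libraries numbered 3 left out, Frat1 and Frat2 passed with the block in each of these comparisons. The libraries numbered 1 stayed in that fit, with mesenchyme and pericyte sums of 2370, 1670, 1320 and 1530 CPM in the same order of groups. The part of cell composition in the Frat result was not tested, and that fit does not test it.

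The Frat genes lie next to each other on chromosome 19. The deposited table lists Frat1 at 41904359 on the plus strand and Frat2 at 41920464 on the minus strand of mm9, 16105 bases apart, with transcript lengths of 2714 and 2258 bases. In RefSeq no annotated gene stands between them. Their starts carry nearly the same sequence, which is shown here because the pair moved together. The windows below are from RefSeq on GRCm38.p6 and run from 250 bases before the annotated start to 30 bases after it, at chr19:41829720-41829999 on the plus strand for Frat1 and chr19:41848103-41848382 on the minus strand for Frat2. Capitals mark the stretch of 68 bases that the 2 windows share, from base -38 to base 30 relative to the start in Frat1 and from base -42 to base 26 in Frat2, where base 1 is the first of the transcript and there is no base 0.
Frat1: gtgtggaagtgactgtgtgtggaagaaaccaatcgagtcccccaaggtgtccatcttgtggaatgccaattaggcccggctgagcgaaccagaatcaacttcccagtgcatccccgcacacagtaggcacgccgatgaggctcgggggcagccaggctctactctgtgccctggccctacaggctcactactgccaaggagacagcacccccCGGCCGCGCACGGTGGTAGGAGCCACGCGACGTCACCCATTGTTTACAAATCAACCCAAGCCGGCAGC
Frat2: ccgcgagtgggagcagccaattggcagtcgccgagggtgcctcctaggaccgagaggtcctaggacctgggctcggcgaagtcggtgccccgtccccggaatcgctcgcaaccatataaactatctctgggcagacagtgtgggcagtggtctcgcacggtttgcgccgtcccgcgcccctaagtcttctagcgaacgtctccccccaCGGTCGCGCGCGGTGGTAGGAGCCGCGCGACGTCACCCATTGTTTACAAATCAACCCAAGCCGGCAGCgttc

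In the capitals, 65 of 68 bases were identical (95.6%), with a longest identical run of 43 bases. Both the stretch and the run end at base 30 of Frat1, the last base of its window, so their full length was not measured. Along the same alignment without gaps, 28.8% of the other bases, all before the capitals, were identical. The shared stretch holds the letters TGTTTAC, a forkhead core, once on the strand shown, starting at base 3 in Frat1 and at base -2 in Frat2. It also holds TGACG, a half-site of the cyclic AMP response element, on the other strand, with its leftmost base at -8 in Frat1 and -12 in Frat2. Searched on both strands, TGTTTAC occurs in 3.49% and TGACG in 19.9% of 32851 RefSeq promoter windows of the same 280 bases. The Tcf/Lef cores CTTTGAT (3.56% of windows) and CTTTGAA (4.86%) do not occur in these windows of Frat1 or Frat2. The matches of TGTTTAC and TGACG do not overlap each other, and a match is a description and not a bound site. Promoter windows were found for 6 of the 10 genes. Of the other 4 with a window, Gsk3a held CTTTGAA at base -158 and TGACG at base -78, a window of Ctnnb1 held TGACG at 2 places, and those of Gsk3b and Apc2 held none of the 4 motifs.

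The similarity of the pair also bears on the counting. Of the stretches of 36 bases in the annotated transcripts, 131 were common to both genes, which is 5.08% of those of Frat1 and 6.16% of those of Frat2. The sources used here do not say how reads that match both places were counted, so a part of the counts of each gene is uncertain. That part was not measured and need not be small for Frat1 in libraries with CT99021. Frat2 had 139 counts with CT99021 and 123 with both compounds, against 32 and 29 of Frat1. With the rows of Frat1 and Frat2 summed, an alternative added after the data were seen, the log2 fold change was -2.08 ± 0.30 with CT99021 against control (edgeR adjusted p = 0.00273 with the block and 0.294 without). It was -2.07 ± 0.30 with both compounds against GW3965 (0.00205 and 0.245) and -2.15 ± 0.30 against control (0.00176 and 0.193). No stretch of 36 bases was shared between Gsk3a and Gsk3b, Apc and Apc2, Btrc and its relative Fbxw11, or Axin1 and Axin2.

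The genes whose pattern was most like that of Frat1, among 14650 gene rows at 1 CPM or more, were Pim1, Nr4a3, Crispld2, Ppp1r26 and Ctdsp1. Pearson's r of log2 CPM with Frat1, after the mean of each library number was taken out, was 0.986, 0.985, 0.984, 0.984 and 0.982 over the 12 libraries, and 0.97 for Frat2. These values rest on the contrast between 6 libraries with and 6 without CT99021, and the libraries share depth and number. Pim1, a serine/threonine kinase gene, had a log2 fold change of -0.96 with CT99021 against control in the fit with the block. That of Nr4a3, an orphan nuclear receptor gene, was -1.06. Both genes were picked in these same libraries for their likeness to Frat1, so their lower levels with CT99021 follow from the choice and are no separate result.

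Axin1 encodes the scaffold on which the destruction complex assembles. It had 81.0, 82.9 and 81.1 CPM in the libraries with both compounds and 81.3, 80.3 and 66.6 CPM with CT99021, against 56.9, 54.7 and 62.5 CPM with GW3965 and 61.9, 60.1 and 54.9 CPM in control. All 6 libraries with CT99021 were above all 6 without. The log2 fold change was 0.37 ± 0.09 for CT99021 against control (edgeR adjusted p = 0.0227 with the block and 0.308 without), 0.49 ± 0.09 for both compounds against GW3965 (0.00487 and 0.144) and 0.47 ± 0.09 against control (0.00629 and 0.136). The last pair of comparisons passed in all 20 alternatives with the block. CT99021 against control lost its call when any of the 3 control libraries, CT99021 replicate 1 or CT99021 replicate 2 was left out, with log2 fold changes of 0.32 to 0.39 and adjusted p of 0.0715 to 0.0996, and over all 20 alternatives its adjusted p ran from 0.00182 to 0.0996. Its paralog Axin2 rose by 1.68 ± 0.14 on the log2 scale with CT99021 against control (edgeR adjusted p = 0.000142 with the block).

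Apc encodes the large tumour suppressor protein that binds Axin and beta-catenin. It stood at 364, 387 and 370 CPM with both compounds and at 288, 366 and 294 CPM with CT99021, against 355, 404 and 477 CPM with GW3965 and 393, 389 and 460 CPM in control. The 3 CT99021 libraries were below the 3 control libraries, while the groups with both compounds and with GW3965 overlapped. The log2 fold change was -0.39 ± 0.11 for CT99021 against control (edgeR adjusted p = 0.0338 with the block and 0.411 without). It was -0.13 ± 0.11 for both compounds against GW3965 (0.403 with the block) and -0.14 ± 0.11 against control (0.356). The interaction of the compounds, which tests the difference between the effects of CT99021 with and without GW3965, was 0.26 ± 0.15 for Apc (adjusted p = 0.999). Leaving out any control library, CT99021 replicate 1 or CT99021 replicate 3 ended the call of CT99021 against control, with log2 fold changes of -0.47 to -0.28 and adjusted p of 0.0567 to 0.138, while the range over all 20 alternatives was 0.00272 to 0.138.

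Apc2 encodes a relative of Apc that is known mainly from the nervous system. Its levels were 295, 226 and 167 CPM with both compounds and 204, 264 and 218 CPM with CT99021, against 369, 297 and 236 CPM with GW3965 and 357, 298 and 274 CPM in control. Libraries with CT99021 were lower in 6 of 6 same-numbered pairs, and the CT99021 and control groups did not overlap. Apc2 did not pass with the block, at log2 fold changes of -0.42 ± 0.15 for CT99021 against control (edgeR adjusted p = 0.0809), -0.40 ± 0.15 for both compounds against GW3965 (0.0808) and -0.46 ± 0.15 against control (0.0527). It passed without CT99021 replicate 3 in CT99021 against control, at -0.54 and an adjusted p of 0.0482. In both compounds against control it passed without CT99021 replicate 1, CT99021 replicate 3, GW3965+CT99021 replicate 1 or GW3965 replicate 3, at -0.60 to -0.46 with adjusted p of 0.00503 to 0.0484. In both compounds against GW3965 it passed without CT99021 replicate 1, at -0.42 and 0.00857. Counting the alternatives that leave out no single library too, it passed in 4, 3 and 10 of 20 for CT99021 against control, both compounds against GW3965 and both against control. Adjusted p over the 20 alternatives ran from 0.0293 to 0.214, from 0.00857 to 0.397 and from 0.00503 to 0.473 in that order.

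Gsk3a and Gsk3b encode the kinase that CT99021 inhibits, as separate genes on chromosomes 7 and 16. Gsk3a had 128, 123 and 97.5 CPM with both compounds and 136, 132 and 103 CPM with CT99021, against 122, 103 and 87.4 CPM with GW3965 and 113, 109 and 94.0 CPM in control. The groups overlapped, since the library numbered 3 was the lowest of each, but CT99021 was higher in 6 of 6 same-numbered pairs, by 0.07 to 0.29 on the log2 scale. Gsk3a rose with CT99021 against control by 0.23 ± 0.06 (edgeR adjusted p = 0.0389 with the block and 0.726 without). Its log2 fold change was 0.16 ± 0.06 with both compounds against GW3965 (0.109) and 0.13 ± 0.06 against control (0.161). The call with CT99021 was lost without Control replicate 1 or 2, CT99021 replicate 1 or 2, GW3965 replicate 2 or any library with both compounds, at log2 fold changes of 0.19 to 0.23 and adjusted p of 0.0504 to 0.182, and also with no filter on low counts, with the 2 groups alone and with Lars2 out of the totals. It passed in 9 of 20 alternatives, and adjusted p over the 20 ran from 0.0134 to 0.182.

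Gsk3b stood at 370, 377 and 293 CPM with both compounds and 332, 370 and 292 CPM with CT99021, against 319, 337 and 315 CPM with GW3965 and 348, 324 and 324 CPM in control. Its groups overlapped throughout. The log2 fold change with CT99021 against control was -0.01 ± 0.08, with a 95% interval of -0.19 to 0.17 (edgeR adjusted p = 0.954 with the block and 0.999 without). With both compounds against GW3965 the interval was -0.09 to 0.28.

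Csnk1a1 encodes casein kinase 1 alpha, which adds the priming phosphate to beta-catenin. Its level was 275, 265 and 260 CPM with both compounds and 278, 264 and 220 CPM with CT99021, against 257, 277 and 271 CPM with GW3965 and 267, 262 and 234 CPM in control. The groups overlapped, and the log2 fold change with CT99021 against control was -0.01 ± 0.08, with a 95% interval of -0.17 to 0.16 (edgeR adjusted p = 0.971 with the block and 0.999 without).

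Btrc encodes the beta-TrCP adaptor that hands phosphorylated beta-catenin to the ubiquitin ligase. It stood at 55.4, 53.9 and 59.3 CPM with both compounds and 54.3, 58.4 and 59.8 CPM with CT99021, against 64.0, 64.6 and 67.1 CPM with GW3965 and 66.2, 64.3 and 72.8 CPM in control. Each of the 6 libraries with CT99021 was below each of the 6 without. The fall was small, at -0.24 ± 0.06 for CT99021 against control (edgeR adjusted p = 0.031 with the block and 0.472 without), -0.22 ± 0.06 for both compounds against GW3965 (0.0354 and 0.439) and -0.27 ± 0.06 against control (0.0152 and 0.297).

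The Btrc calls depended on single libraries and on other settings, and passed in 12, 10 and 15 of 20 alternatives in the comparisons as they follow. CT99021 against control lost its call without any control or CT99021 library, GW3965 replicate 1 or GW3965 replicate 2, at adjusted p of 0.0523 to 0.131 in edgeR with the block. Both compounds against GW3965 lost it without Control replicate 1 or 2, GW3965 replicate 1 or 2, or any library with both compounds, at 0.0585 to 0.135, and also with no filter on low counts, with the 2 groups alone and in a fit to 7 libraries that leaves out those numbered 3 and GW3965+CT99021 replicate 2. Both compounds against control lost it without Control replicate 1, Control replicate 3 or GW3965+CT99021 replicate 2, at 0.0544 to 0.0715, and also with the 2 groups alone and in those 7 libraries. Over the 20 alternatives adjusted p ran from 0.0141 to 0.131, from 0.016 to 0.135 and from 0.0022 to 0.0715 in that order of comparisons, and the log2 fold change stayed between -0.31 and -0.20 in all of them. A list of 7 other genes of cullin ubiquitin ligases held Skp1a, Cul1, Rbx1, Fbxw11, Fbxw7, Nedd8 and Cand1. In edgeR with the block 0 of them passed with CT99021 against control, where 15.8% of all genes did. With both compounds 1 passed against control and 1 against GW3965, where 20.3% and 20.6% of all genes passed. Rbx1 and Cand1 were singled out after their values were seen. Rbx1, the RING subunit of the ligase, gave -0.33 ± 0.08 with both compounds against control (edgeR adjusted p = 0.0207 with the block and 0.398 without) and -0.24 ± 0.08 against GW3965 (0.0757 and 0.592). Cand1, an exchange factor of cullin ligases, gave 0.16 ± 0.06 with both compounds against control (0.0748 and 0.756) and 0.21 ± 0.06 against GW3965 (0.0298 and 0.672).

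Ctnnb1 encodes beta-catenin, whose protein the complex controls. Its transcript stood at 1202, 1242 and 1078 CPM with both compounds and 1106, 1267 and 1157 CPM with CT99021, against 1150, 1243 and 960 CPM with GW3965 and 1184, 1268 and 1123 CPM in control. The 4 groups overlapped. The log2 fold change with CT99021 against control was -0.02 ± 0.07, with a 95% interval of -0.17 to 0.14 (edgeR adjusted p = 0.895 with the block and 0.993 without), and with both compounds against GW3965 it was 0.08 ± 0.07, with an interval of -0.08 to 0.23 (0.478). The libraries measure RNA, so they give no level of the beta-catenin protein.

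**Figure D3:**
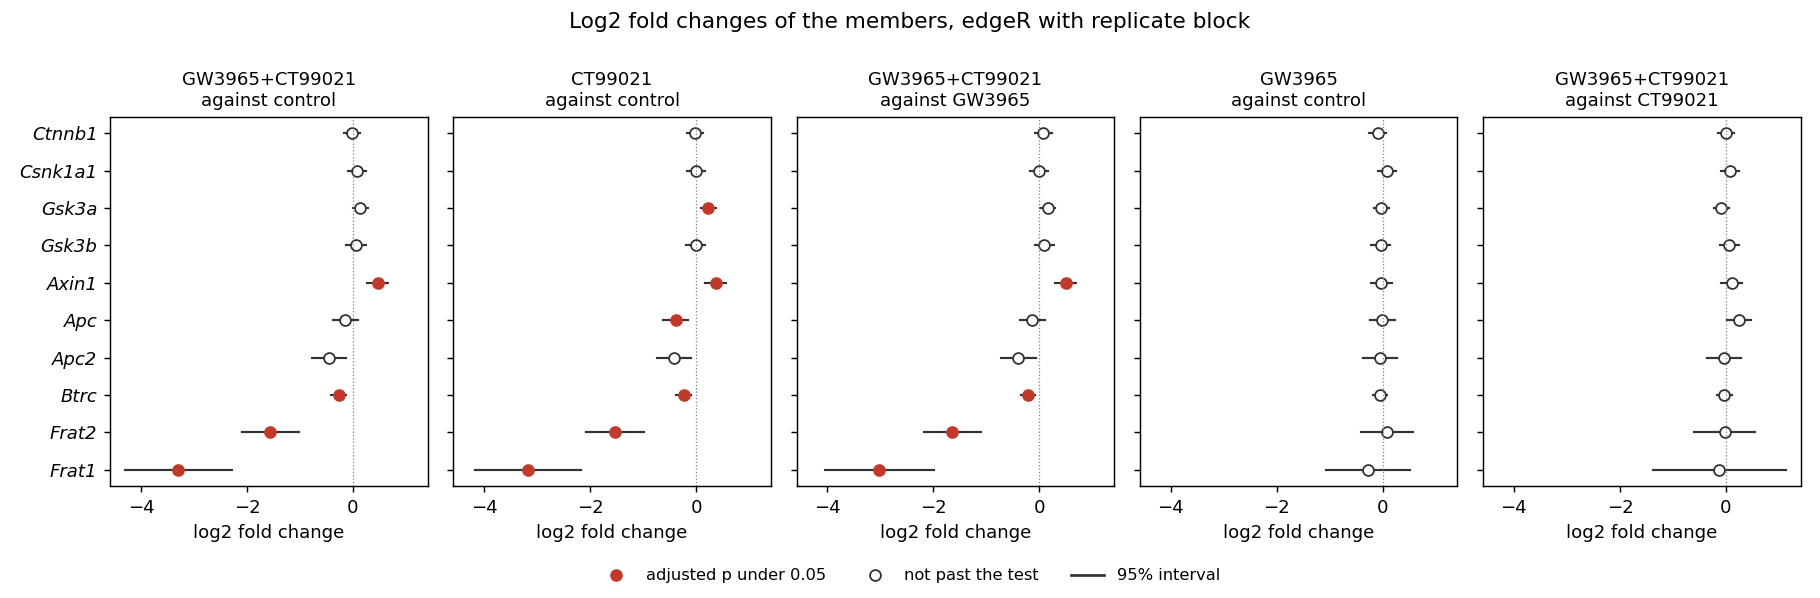
Log2 fold change (x axis) of each gene in 5 comparisons, from edgeR with the replicate block. Points are estimates, lines 95% intervals, and filled points had an adjusted p under 0.05. The 3 panels in which CT99021 was added show Frat1 near -3 and Frat2 near -1.5, and the panels in which GW3965 was added hold no filled point.

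No change among these transcripts passed the test with GW3965. With GW3965 against control 0 of the 10 genes passed, where 3 genes, or 0.0192% of those tested, did. None of the 10 had an unadjusted p under 0.05 in edgeR with or without the block, against 386 and 23 of all tested genes. DESeq2 and limma-voom, each with and without the block, also called 0 of the 10. Log2 fold changes of the genes other than Frat1 lay between -0.10 and 0.08. Frat1 was 5.38 ± 0.68 CPM with GW3965 and 6.65 ± 0.11 CPM in control (SD, n = 3 each), where the control SD is below counting noise. Its groups did not overlap, as for 2.77% of all genes, but the log2 fold change was -0.28 ± 0.36 with a 95% interval of -1.07 to 0.52 (edgeR adjusted p = 0.96 with the block). In the 3 same-numbered pairs the log2 ratio was -0.13, -0.25 and -0.52, each lower with GW3965.

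Adding GW3965 to CT99021 moved none of these genes past the test. With both compounds against CT99021 0 of the 10 passed, as did 0.0192% of all genes. Apc alone had an unadjusted p under 0.05 with the block, at a log2 fold change of 0.25 ± 0.11 (edgeR adjusted p = 0.734), against 1017 genes in all, and none of the 10 had one without the block, against 165 genes. Frat1 gave -0.12 ± 0.57 with an interval of -1.38 to 1.13, and Frat2 -0.03 ± 0.26 with an interval of -0.61 to 0.55. In the interaction of the compounds 0 of the 10 genes and 0% of all genes passed, with 523 genes and none of the 10 at an unadjusted p under 0.05 with the block, and 74 and none without it. The interaction was 0.15 ± 0.69 for Frat1 and -0.11 ± 0.34 for Frat2 (edgeR adjusted p = 0.999 for each), so a difference between the falls of Frat1 with and without GW3965 of up to 1.68 on the log2 scale lay within its 95% interval. The other tools called 0 of the 10 in both of these tests.

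Known targets of each compound were examined as a check. With GW3965 against control, the LXR targets Abca1, a cholesterol exporter gene, and Srebf1, a regulator of lipid synthesis, rose by 1.89 ± 0.17 and 1.40 ± 0.09 on the log2 scale (edgeR adjusted p = 0.00388 and 0.000264 with the block, 1 and 0.153 without). With CT99021 against control, Srebf1 also rose, by 0.42 ± 0.09 (0.013 with the block and 0.475 without), and Abca1 had a log2 fold change of -0.47 ± 0.17 (0.0952).

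Of 50 other genes of the pathway, chosen with earlier results of these data known and all tested, 9 rose and 4 fell with CT99021 against control, where 8.23% of all tested genes rose and 7.59% fell, at a median log2 fold change of 0.02 over the 50, equal to that over all genes. With both compounds against GW3965 10 rose and 2 fell, where 11.8% of all genes rose and 8.81% fell, at a median of 0.07 over the 50 and 0.01 over all genes. With both against control 7 rose and 7 fell, where 11.3% of all genes rose and 8.95% fell. Of the 9 and 10 that rose with CT99021 against control and with both compounds against GW3965, 9 were in common. Of the 4 and 2 that fell, 2 were. These comparisons share no library but came from the same fit to all libraries, so the overlap is not an independent repeat. With GW3965 against control, and with both compounds against CT99021, 0 of the 50 passed. Without the block 0 of the 50 passed in any comparison.

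The largest increases among them with CT99021 belonged to feedback and target genes. Nkd1, an inhibitor that binds Dishevelled, averaged 326 ± 211 CPM with CT99021 and 68.5 ± 28.9 CPM in control (SD, n = 3 each), a log2 fold change of 2.08 ± 0.20 (edgeR adjusted p = 0.00039 with the block and 0.346 without). Axin2, the inducible paralog of Axin1, averaged 253 ± 146 CPM with CT99021 and 73.7 ± 33.8 CPM in control, a log2 fold change of 1.68 ± 0.14 (0.000142 and 0.438). Lef1, a partner of beta-catenin on DNA, averaged 93.9 ± 37.4 CPM with CT99021 and 28.7 ± 3.74 CPM in control, at 1.63 ± 0.19 (0.00101 and 0.174). The spread of Nkd1 and Axin2 between libraries of a group was large beside their means.

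The largest decreases were smaller. Cby1, which encodes an antagonist that binds beta-catenin, averaged 17.2 ± 2.22 CPM with CT99021 and 26.7 ± 2.77 CPM in control, a log2 fold change of -0.63 ± 0.16 (edgeR adjusted p = 0.0301 with the block and 0.363 without). With both compounds against GW3965 Cby1 did not pass, at -0.32 ± 0.17 (0.203 with the block). Tcf7l1, a mostly repressive Tcf factor gene, averaged 24.0 ± 12.4 CPM with CT99021 and 33.9 ± 12.5 CPM in control, at -0.55 ± 0.11 (0.0109 and 0.807). Tcf7l2, another Tcf factor gene, averaged 142 ± 33.6 CPM with CT99021 and 187 ± 42.8 CPM in control, at -0.40 ± 0.10 (0.0273 and 0.8).

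**Figure D4:**
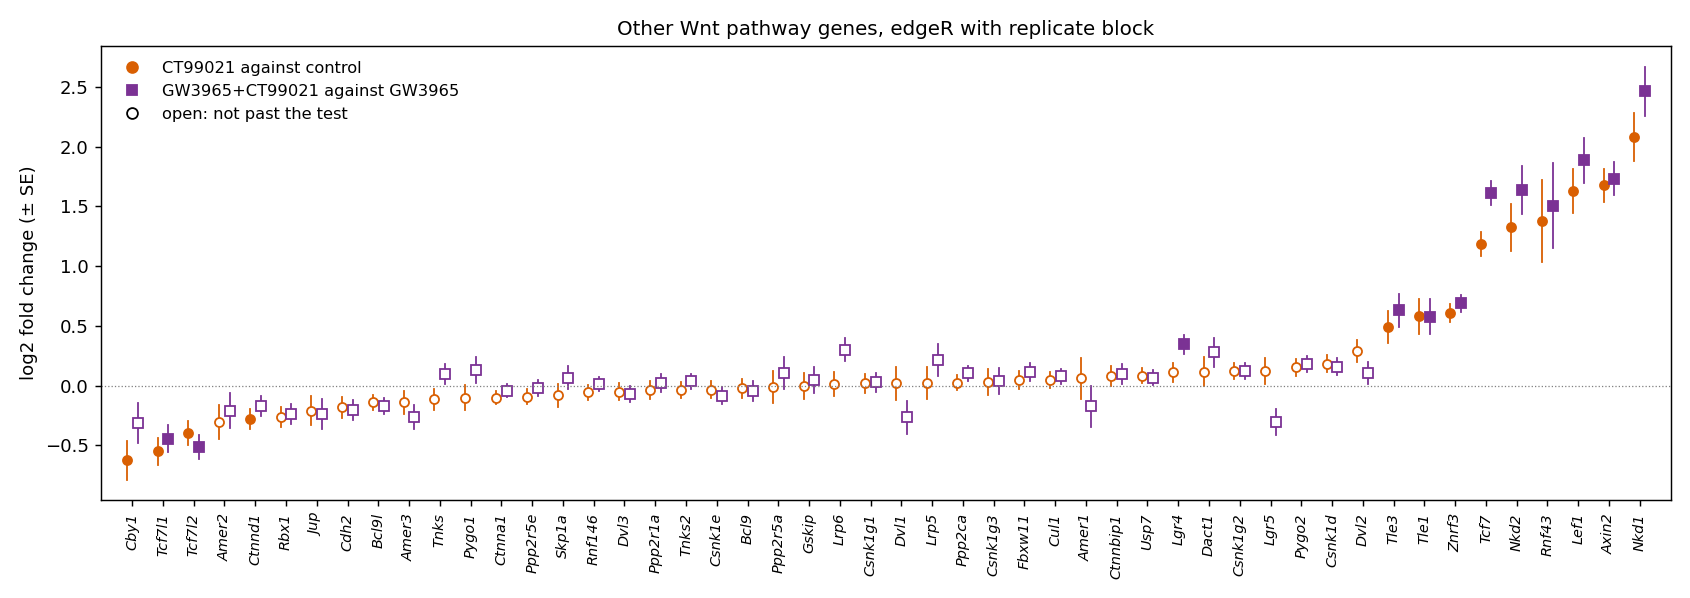
Log2 fold changes (± SE) of 50 other genes of the pathway for CT99021 against control (circles) and for both compounds against GW3965 (squares), from edgeR with the replicate block. Filled symbols had an adjusted p under 0.05. Nkd1, Lef1 and Axin2 stand at the upper right, and Cby1, Tcf7l1 and Tcf7l2 at the lower left.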

How the data were processed

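The authors deposited 1 table of raw counts for the 12 libraries, with the length of each transcript. Per the submitters' processing notes, Bowtie and the build mm9 were used; the sources used here name no counting program, annotation or rule for strand and for reads that map repeatedly, and these are not given in the labels. Per the labels' protocols, 0.5 µg of RNA per library went into Illumina TruSeq libraries. The 1217 rows of repeat families (0.196% to 0.643% of counts) stayed out of library sizes and tests. Replicates of a group differed by more than sampling noise (chi-square of 28.2 to 136 per gene, averaged over genes). The values 114 and 136 belong to the pairs with CT99021 replicate 1, where Lars2 took 7.95% of the gene counts. All other pairs gave 28.2 to 81.5. Lars2 was among the genes averaged, and its part in these values was not measured. Reads carry no molecular identifiers.

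The fixed test was edgeR's quasi-likelihood F test (edgeR 4.0.16, R 4.3.3) on all 12 libraries, with trimmed mean of M values (TMM) factors, the filterByExpr filter and Benjamini-Hochberg adjustment over 15608 genes, without a replicate block. CPM used TMM-scaled totals, and log2 ratios of same-numbered pairs a pseudocount of 0.25 CPM. Log2 fold changes carry standard errors, and 95% intervals come from the same fit. The replicate numbers were checked as pairing on deviations from group means: r was 0.496 to 0.828 in the 18 same-numbered pairs and -0.677 to 0.241 in the others, so the pairing rests on the data, not on a label. The block took the biological coefficient of variation to 12.7%, against 33.4% in the fit that lacks it. Each fit was run only on counts simulated to match it, with replicate effects for fits with the block and none for the others. These simulations therefore cannot decide between the fits. DESeq2 1.42.0 and limma 3.58.1 (voom) were alternatives, with and without the block.

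The members and lists were chosen with earlier results of these data known. Named genes were the 10 members, the 3 largest increases and 3 largest decreases past the test in the list of other pathway genes, 4 compound checks, and the 5 genes most like Frat1. Marker genes and the 7 cullin ligase genes were named from their lists. Lars2 was chosen, and Rbx1 and Cand1 were singled out, after their values were seen. Motifs were chosen after the shared stretch was seen, apart from the Tcf/Lef cores. Protein sequences are not used here.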

Additional observations from a re-analysis of the deposited data

How the results depend on the processing

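The replicate block changed most of the calls. In CT99021 against control, GW3965+CT99021 against control and GW3965+CT99021 against GW3965, in that order, edgeR without the block called 0, 0 and 0 of the 10 genes and with the block 6, 4 and 4. Of all genes tested, 0.0577%, 0.115% and 0.0769% passed without the block and 15.8%, 20.3% and 20.6% with it. For the other settings the share of all genes is not given here. A change in the counts that follow is thus not a result about the 10 genes alone. DESeq2 without the block called 1, 2 and 2, and limma-voom 1, 1 and 1. The DESeq2 calls were Axin1 in each comparison (adjusted p = 0.0325, 0.0018 and 0.000875) and Frat1 in those with both compounds (1.58e-06 and 2.76e-05), and the limma-voom call was Frat1 (0.0471, 0.0175 and 0.04). With the block DESeq2 called 7, 5 and 5 and limma-voom 6, 5 and 4. The edgeR fit with the block called 6, 5 and 4 with DESeq2 size factors, 5, 5 and 3 with no filter on low counts, 6, 4 and 4 with the 2 groups alone, and 5, 5 and 4 with Lars2 out of the totals. Without the 4 libraries numbered 3 it called 6, 4 and 4. A set of 5 libraries, those 4 and GW3965+CT99021 replicate 2, was found to stand apart in earlier work on these data, and without it 7, 3 and 3 were called. Leaving out 1 library at a time gave 2 to 6, 3 to 5 and 3 to 5 calls with the block. The 2 remaining in CT99021 against control, without Control replicate 1 or 2 or CT99021 replicate 1, were Frat1 and Frat2. Without the block it gave 0 to 0, 0 to 1 and 0 to 1, the call being Frat1 without GW3965+CT99021 replicate 3 (adjusted p = 0.00793 against control and 0.0139 against GW3965). The cause of these differences was not tested. GW3965 against control, both compounds against CT99021 and the interaction kept 0 calls among the 10 in each of these alternatives, except that the interaction has no fit with 2 groups alone. No direction of a called gene reversed. Over the 10 genes and the sum of Frat1 and Frat2, their comparisons and the alternatives, 280 log2 fold changes that had not passed in the fixed fit passed. Depth limits Frat1 most, at 4 to 19 counts in each library with CT99021.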
